A study of Homo sapiens with 8 samples.

Results

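DLX1, DLX2, DLX5, DLX6, the long non-coding RNA DLX6-AS1 and LMO1 were followed across single cells of human neural cultures, 6 of the 60286 genes of the deposited matrix. They were chosen from the data, because their levels stood apart between cultures tagged 3DMono AcMor and 3DMono Vehic, so their values in that contrast are given as a description with no test. The study measured RNA in 43693 cells of flat (2-D) and 3-D neural cultures grown from the embryonic stem cell line H1, an established line, to see which cells the cultures hold and what dopamine, cocaine or morphine do to them. Fixed cells received their barcodes over repeated rounds with a SplitBio kit, and 3-D cultures were dissociated with papain from 2 or 3 organoids at a time. The 8 deposited samples are sublibraries of 1 pool and have no treatment of their own. Each cell name holds a tag that gives format, arrangement, number and, for some, treatment, and comparisons were made over the 46 tags.

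The tags named 9 arrangements. 2DCocu had AcCoc, AcMor and Vehic with 4 tags each. 3DFusi had 4 AcCoc, 3 AcMor and 3 Vehic tags. 2DMono and 3DMono each had AcDop, AcMor and Vehic with 2 tags per treatment. Tags with Proto in their name carried no treatment: 2DProto2Fjo, 2DProto3Wu_ and 2DProto4Nic with 2 tags each, and 3DProto1For and 3DProto2Xia with 3 tags each. The labels list dopamine, cocaine, morphine and untreated for every sublibrary and do not spell out AcDop, AcCoc, AcMor, Vehic or the arrangement names, nor doses or times, so the tags are used as written. All cells share the H1 line as their source. Whether the tags of a group are separate cultures is not stated, so the spread between tags, and every p-value built on it, may be partly technical.

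DLX genes encode homeodomain transcription factors. In the ventral forebrain, DLX1 and DLX2 come on in dividing precursors of the ganglionic eminences, and DLX5 and DLX6 follow as these cells leave the cell cycle and become GABAergic neurons, the inhibitory neurons that use GABA as their transmitter. The DLX genes lie in convergent pairs that share enhancers, and DLX6-AS1 (also called Evf2 in mouse) is transcribed from the DLX5 and DLX6 locus on the strand opposite to DLX6. LMO1 encodes a protein of LIM domains without a DNA-binding domain of its own, which bridges LIM-domain-binding proteins and transcription factors. It is known in developing brain and as an oncogene in T-cell leukaemia and neuroblastoma.

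The genes lie at 3 loci of GRCh38 (RefSeq coordinates, build GRCh38.p14; the submitters' processing notes name hg38). DLX1 (chr2:172085507-172089674, plus strand) and DLX2 (chr2:172099438-172102900, minus strand) face each other across 9763 bases. DLX6 (chr7:97005553-97011040, plus strand) and DLX5 (chr7:97020396-97024831, minus strand) are 9355 bases apart. DLX6-AS1 (chr7:96968515-97014065, minus strand) covers the whole DLX6 span of 5488 bases, although the GENCODE 29 exons of the pair share 0 bases. Whether the counting used strand is not stated, so reads from DLX6 and DLX6-AS1 cannot be told apart with certainty where their spans overlap. LMO1 is on chromosome 11 (chr11:8224309-8268787, minus strand).

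Because levels of the members went together over tags, as given further on, their start regions were searched for short sequences that homeodomain and basic helix-loop-helix factors can bind. RefSeq promoter windows of 300 bases (250 before and 50 after the annotated start, GRCh38.p14) were at hand for 5 of the 6 members; DLX5 is named only. One homeodomain core searched for was TAATTA, which reads the same on both strands. The other homeodomain core was TAATTG, which on the opposite strand reads CAATTA. The first E-box was CAGCTG, which reads the same on both strands. The last motif was the E-box CAGGTG, which on the opposite strand reads CACCTG. The 3 windows that held any of them are printed 5′ to 3′ on the strand of the gene, with matches in capitals: LMO1 at chr11:8268738-8269037 (minus), DLX6-AS1 at chr7:97014016-97014315 (minus) and DLX2 at chr2:172102851-172103150 (minus).
LMO1: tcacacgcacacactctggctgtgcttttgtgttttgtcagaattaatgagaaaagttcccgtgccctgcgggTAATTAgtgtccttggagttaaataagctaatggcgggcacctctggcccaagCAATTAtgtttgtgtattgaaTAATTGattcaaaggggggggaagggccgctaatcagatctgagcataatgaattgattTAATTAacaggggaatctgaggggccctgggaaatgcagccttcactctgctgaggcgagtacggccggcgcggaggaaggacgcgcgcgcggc
DLX6-AS1: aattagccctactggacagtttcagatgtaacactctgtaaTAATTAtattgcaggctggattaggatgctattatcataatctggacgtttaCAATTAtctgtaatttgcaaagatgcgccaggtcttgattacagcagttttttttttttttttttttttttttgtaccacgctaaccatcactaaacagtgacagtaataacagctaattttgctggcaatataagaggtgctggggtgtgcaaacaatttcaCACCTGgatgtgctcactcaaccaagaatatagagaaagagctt
DLX2: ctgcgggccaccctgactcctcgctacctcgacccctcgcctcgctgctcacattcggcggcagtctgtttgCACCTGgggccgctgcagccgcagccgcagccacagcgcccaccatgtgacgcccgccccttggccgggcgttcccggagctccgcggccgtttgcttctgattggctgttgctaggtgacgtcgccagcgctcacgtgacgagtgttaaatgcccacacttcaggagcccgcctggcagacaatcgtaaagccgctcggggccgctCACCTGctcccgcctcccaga
The LMO1 window held each homeodomain core 2 times, at -177, -124, -103 and -44 relative to the start. The first core occurred in 4.84% and the second in 7.38% of 35116 promoter windows of this length, and 11 of those windows (0.0313%) held at least 4 matches to these cores. That count of 4 was taken after the LMO1 window had been seen. The DLX6-AS1 window held both homeodomain cores, at -209 and -157, and an E-box at 6, and it was poor in GC (36% against a median of 58.7%). DLX2 held the second E-box at -178 and 29, a motif present in 20.6% of windows. DLX1 and DLX6 had no match, and the E-box that is its own reverse complement, present in 17.9% of windows, was in none of the 5. A match describes these letters only.

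Depth limits what can be said of low genes. Tags held 317 to 1959 cells and 3624668 to 58777180 counts, with median counts per cell between 7546 and 25853 across tags. Of all cells, 6591 (15.1%) were called doublets and kept, and 2393 barcode combinations occurred in cells of more than 1 sublibrary (4894 cells). Across the 8 sublibraries the coefficient of variation was 4.16% to 8.76% for every member except DLX6, at 16.8%. DLX6 had only 769 counts in all, against 6003 or more for each other member. Levels are given as CPM, a gene's counts scaled to a common total of counts per tag, which compare a gene between tags and not one gene with another. In counts summed over a tag, more cells of a type and more RNA per cell cannot be told apart.

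The DLX genes spanned a wide range over the 46 tags. DLX1 ran from 0.582 to 58.6 CPM with a median of 7.55. DLX2 ran from 0.116 to 67.9 CPM (median 5.71), and DLX5 from 0.0707 to 43.8 CPM (median 3.38). DLX6-AS1 ran from 8.15 to 1016 CPM, with a median of 118. LMO1 covered a narrower range, from 2.48 to 53.1 CPM with a median of 6.94. The 12 tags of 2DCocu were lowest or near lowest for the DLX genes, with a mean DLX1 of 1.67 ± 0.715 CPM (SD, n = 12), and the 2 tags of 2DProto4Nic were as low at 1.03 ± 0.156 CPM (SD, n = 2). 2DProto3Wu_ had 43.3 ± 2.28 CPM of DLX1 (SD, n = 2), 3DFusi 29.2 ± 15.9 (SD, n = 10) and 3DMono 19.6 ± 13.2 (SD, n = 6). 3DFusi and 3DMono differed by less than the spread between their tags.

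LMO1 did not follow the DLX genes everywhere. In the 6 tags of 2DMono it stayed between 3.09 and 4.72 CPM, while DLX1 ran from 4.54 to 17.9 CPM there. In 2DProto3Wu_, LMO1 reached 53.1 and 45.5 CPM, its highest group mean of the series. In 3DProto1For, tag 1 had 15.04 CPM of LMO1 with only 4.36 of DLX1, and tag 3 had 34.2 CPM of LMO1 with 19.0 of DLX1. Tags of 3DProto2Xia were far apart from each other: tag 2 had 1.03 CPM of DLX1 where tags 1 and 3 had 33.5 and 53.8 CPM. Over the 46 tags, log2(CPM + 1) of DLX1 had Pearson correlations of 0.962 with DLX2, 0.969 with DLX5, 0.981 with DLX6-AS1 and 0.783 with LMO1. These are descriptions over tags that share arrangement, cell makeup and depth.

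**Figure D1:**
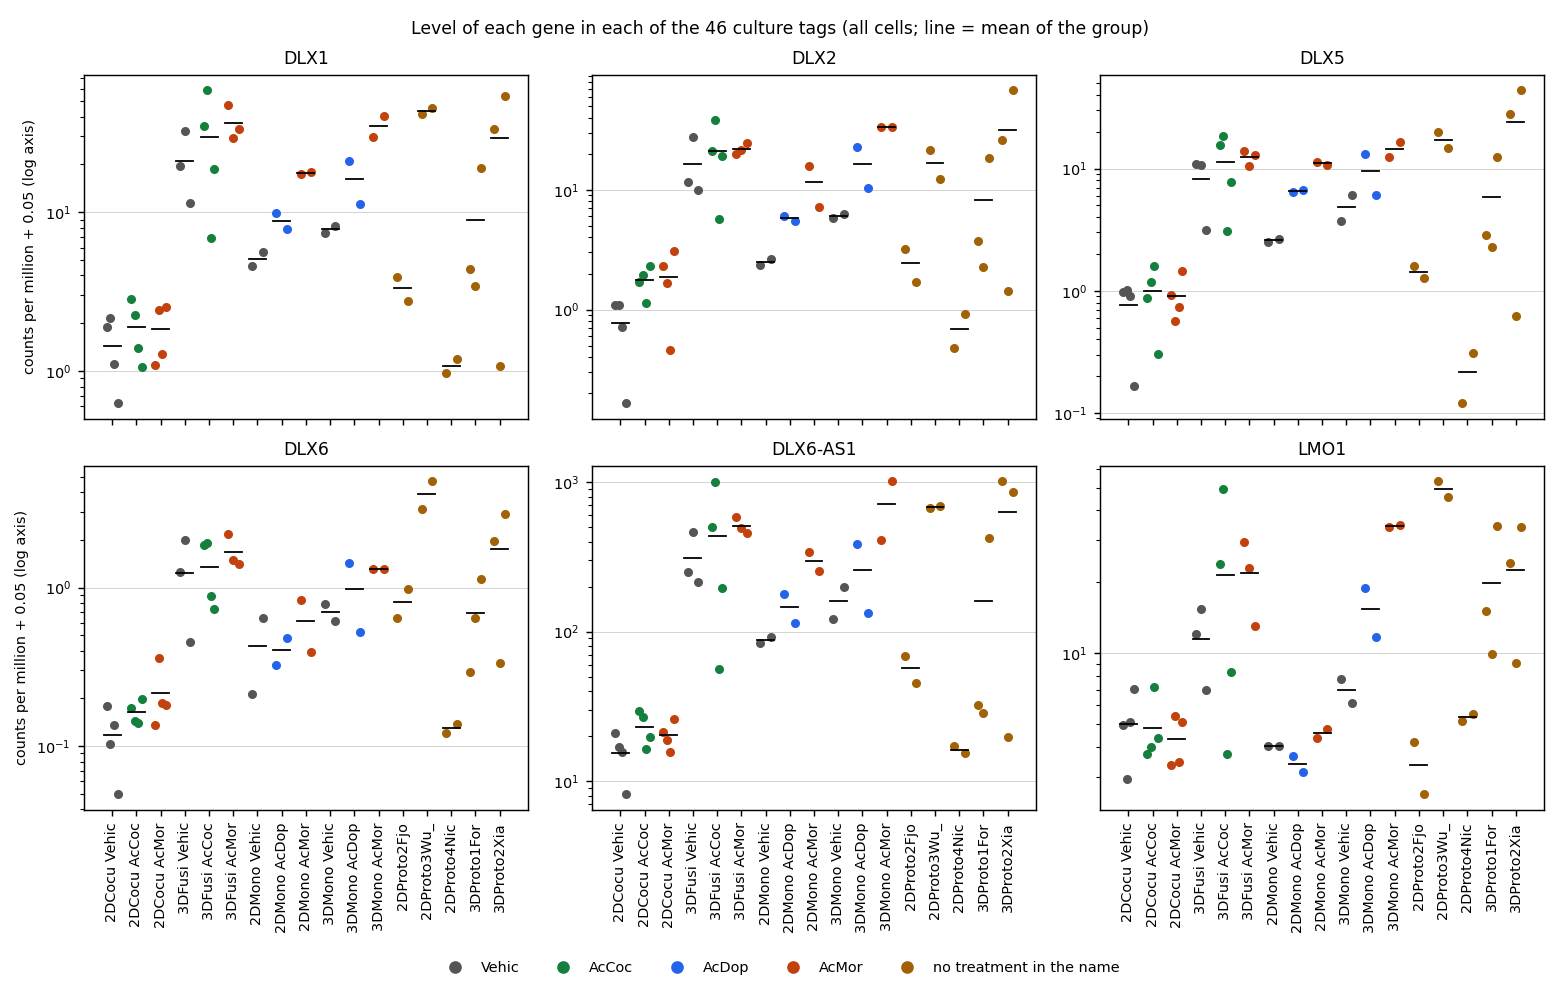
Each panel plots 1 gene in CPM plus 0.05 on a log axis, with a point per culture tag (46 in all), groups along the x axis, colours for the treatment in the tag and a line at the group mean. DLX genes and DLX6-AS1 are low in 2DCocu and 2DProto4Nic and high in 3DFusi, 2DProto3Wu_ and 3DMono AcMor, whereas LMO1 stays between 3.09 and 4.72 CPM in all 6 tags of 2DMono.

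Clusters of cells were built without the 6 members and named from markers, with names ending in -like. DLX1 and DLX2 were highest in cluster 12, a cycling-like cluster of 1317 cells with the proliferation marker MKI67 at 953 CPM. There DLX1 stood at 124 CPM, DLX2 at 123, DLX5 at 50.2, DLX6-AS1 at 906 and LMO1 at 69.9 CPM. The cluster also had GAD1 (174 CPM) and GAD2 (256 CPM), which encode the GABA-synthesising enzymes. It held 3.01% of all cells and 18.6% of all DLX1, 24.6% of all DLX2 and 11.99% of all LMO1 counts. The other large cycling-like cluster, 13, had 14.4 CPM of GAD1, 8.83 of DLX2 and 26.6 of LMO1.

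DLX5 and DLX6-AS1 were highest in cluster 22, a GABAergic neuron-like cluster of 768 cells with LHX6, a factor of medial ganglionic eminence interneurons, at 27.3 CPM (10.8% of its cells), SP9 at 43.6 CPM and SP8 at 46.8 CPM. Other factors of that eminence were low there, with NKX2-1 at 0.746 CPM and LHX8 at 1.18. DLX5 was 106 CPM and DLX6-AS1 2841 CPM in that cluster. It made up a mean of 20.7% of cells in 3DProto2Xia (0.137% to 32.6% over its 3 tags) and 3.63% in 3DProto1For (0% to 10.9%). In every other group its mean was at most 0.571%, so its levels rest mainly on few tags. The largest GABAergic neuron-like cluster, 1, had 94.4 CPM of DLX1, 66.8 of DLX2, 48.8 of DLX5 and 2208 of DLX6-AS1. LHX6 was at 0.7 CPM there, and SP8 at 26.6. DLX6-AS1 counts were seen in 91.1% of its cells after thinning to 5000 counts per cell (exact binomial interval 89.9% to 92.3%, counting error only), against 2.54% in the excitatory neuron-like cluster 0, whose cells should lack it, at median depths of 9512 and 9248 counts. Unthinned, the shares were 95.3% and 4.29%. Cluster 0 had the lowest DLX6-AS1 of the excitatory neuron-like clusters, at 11.7 CPM. Clusters 4, 7 and 23 of that class had 84.1, 82.6 and 32.1 CPM, and after thinning 99 of 1831 cells of cluster 4 had a count.

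LMO1 split the GABAergic neuron-like clusters. It was 45.99 CPM in cluster 8, which has LHX8 at 58.8 CPM and made up 65.6% and 65.8% of the 2DProto3Wu_ tags. It was 16.2 CPM in cluster 1, 13.01 in cluster 22 and 1.34 in cluster 26, which made up 6.31% to 18.5% of the 2DMono tags. In cluster 26, DLX1 was 60.7 and DLX6-AS1 1601 CPM, so LMO1 was low where the DLX genes were high. Outside 2DProto3Wu_ the highest group mean of cluster 8 was 0.850% of cells, and outside 2DMono that of cluster 26 was 1.155%. The LMO1 levels of these 2 clusters therefore cannot be told apart from differences between arrangements. Among the 43 clusters, LMO1 ranked 2 in the unnamed cluster 27 (712 cells, 53.6 CPM), where DLX2 ranked 22, DLX1 12, DLX6-AS1 7 and DLX5 6. In the progenitor-like cluster 3 (1943 cells) LMO1 ranked 4 (34.97 CPM), DLX1 and DLX2 10 and DLX6-AS1 11. The LMO1 level of that cluster differed widely between the tags of 3DMono, as given further on. All of these are levels summed over every tag with cells in a cluster, and clusters 8, 22 and 26 were each concentrated in 1 arrangement. The levels are given without a test because the clusters were drawn from the same cells.

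**Figure D2:**
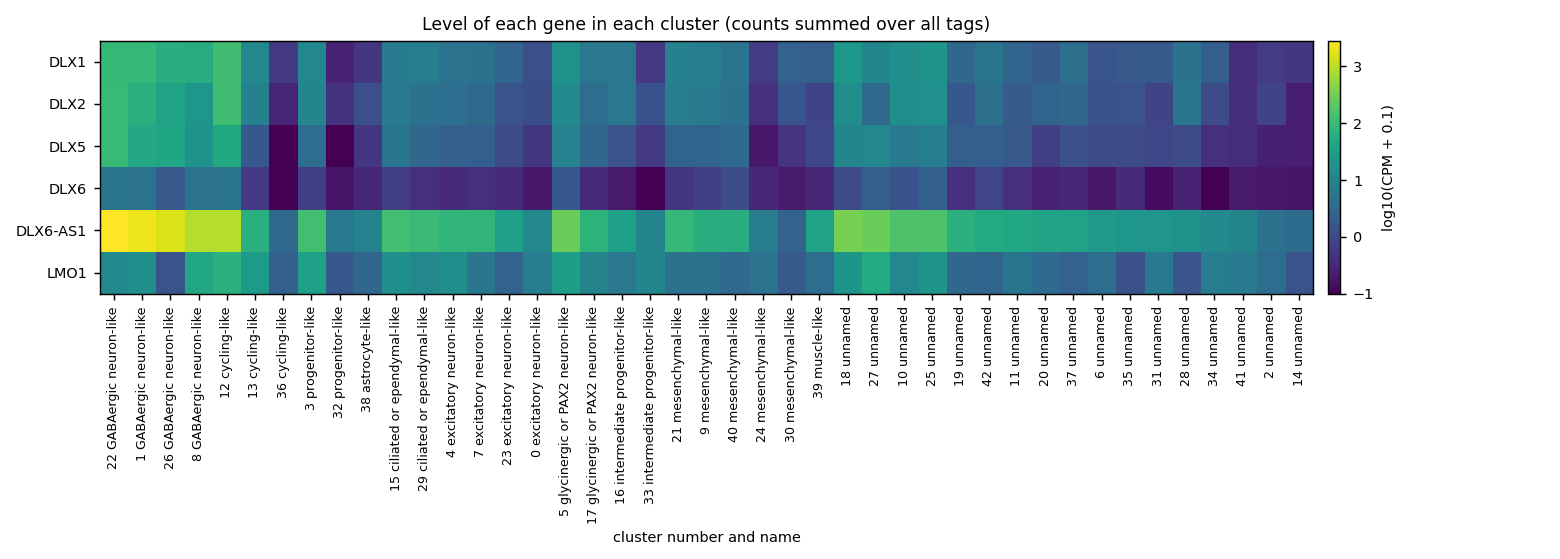
Colour gives log10(CPM + 0.1) of each gene (rows) in each cluster (columns, number and marker-based name), with counts summed over all tags. DLX1, DLX2, DLX5 and DLX6-AS1 share their bright columns, the 4 GABAergic neuron-like clusters and cycling-like cluster 12, while LMO1 is dim in GABAergic neuron-like cluster 26 and bright in unnamed cluster 27 and progenitor-like cluster 3.

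Within single cells thinned to 5000 counts, 31.2% of the 2830 cells with a DLX1 count also had a DLX2 count, against 3.6% of cells without DLX1. A DLX6-AS1 count was seen in 78.7% of DLX1 cells, 73.1% of DLX2 cells and 89.1% of DLX5 cells. LMO1 overlapped less: 16.0% of the 2074 cells with an LMO1 count had DLX1, against 6.2% of cells without. Inside cycling-like cluster 12, DLX2 was seen in 53.4% of cells with DLX1 and 28.1% of cells without it. LMO1 cells of that cluster had DLX2 at 37.6% and the remaining cells at 38.1%, while DLX1 was seen in 51.8% and 36.6%. Cells of a tag are not replicates, so these shares carry no test.

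The contrast that chose the genes was 3DMono AcMor against 3DMono Vehic, and every member was higher in both AcMor tags than in both Vehic tags. DLX1 was 29.6 and 40.1 CPM in the AcMor tags, 7.37 and 8.18 in the Vehic tags, and 20.8 and 11.2 in the AcDop tags. DLX2, its neighbour in the genome and partner in early GABAergic precursors, was 33.6 and 33.7 CPM in AcMor, 5.76 and 6.29 in Vehic and 22.8 and 10.2 in AcDop. The AcDop tags lay between the other groups for both genes, with tag 1 above tag 2.

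DLX5, which acts later in the same lineage, was 12.3 and 16.3 CPM in AcMor, 3.65 and 6.02 in Vehic and 13.02 and 6.08 in AcDop. DLX6 was 1.26 and 1.25 CPM in AcMor, 0.733 and 0.567 in Vehic and 1.38 and 0.472 in AcDop. DLX6-AS1 was 411 and 1014 CPM in AcMor, 122 and 199 in Vehic and 385 and 133 in AcDop. The AcMor and Vehic values did not overlap for any of these genes. The AcMor tags themselves were far apart in DLX6-AS1.

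LMO1 was 34.0 and 34.5 CPM in the AcMor tags, 7.69 and 6.09 in the Vehic tags and 18.8 and 11.6 in the AcDop tags. The 3 groups did not overlap. As fitted by edgeR with TMM scaling, the AcMor-to-Vehic log2 fold changes were 2.25 for DLX1, 2.58 for DLX2, 1.68 for DLX5, 0.95 for DLX6, 2.22 for DLX6-AS1 and 2.39 for LMO1. Groups that did not overlap, with AcMor higher, were found for 11.9% of the 22112 genes tested, and nothing is read from the members' 6 of 6 because this contrast chose them. The fit called 0.0% of genes at an adjusted p of 0.05 (1925 genes had an unadjusted p below 0.05, and DESeq2 called 178, or 0.805%). AcMor tag 1 was the deepest of these tags, with a median of 21683 counts per cell against 9501 to 12913 in the other 5. The part of depth in the members' values was not tested.

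The share of cells with a count, thinned to 5000 counts, was 13.04% ± 1.67 for DLX1 in AcMor and 3.82% ± 0.225 in Vehic (SD, n = 2 tags each). For LMO1 it was 10.6% ± 0.143 and 2.90% ± 0.419, and for DLX6-AS1 37.4% ± 12.997 and 12.1% ± 4.06. The GABAergic neuron-like class made up 17.7% and 33.9% of cells in the AcMor tags, 4.35% and 5.81% in the Vehic tags and 17.1% and 4.60% in the AcDop tags. Cycling-like cluster 12 made up 5.44% and 9.34% in AcMor, 2.01% and 2.03% in Vehic and 3.49% and 1.95% in AcDop. Progenitor-like cells differed little in share, between 13.4% and 15.8% over the 6 tags.

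Within cycling-like cells of 3DMono all members but DLX6 were higher in both AcMor tags. Nothing is read from that, because this contrast chose the members. Over whole tags 11.9% of genes were higher in both AcMor tags, a share not counted within this class. DLX1 was 70.1 and 63.6 CPM in the AcMor tags against 15.6 and 21.0 in the Vehic tags, and DLX2 was 91.1 and 61.6 against 21.8 and 22.1. LMO1 was 93.7 and 77.0 CPM against 12.8 and 16.8, with the AcDop tags at 25.2 and 30.7. Over all genes of this class 0.201% were called. The fitted log2 fold change was 2.05 for DLX1, 1.95 for DLX2, 1.13 for DLX5, 1.99 for DLX6-AS1 and 2.71 for LMO1. The class was made up differently in the groups. Cluster 12, where DLX1 was 124 CPM, held a mean of 2.02% of cells in Vehic and 7.39% in AcMor, and cluster 13, where it was 11.6 CPM, held 10.1% and 7.73%. The part of this makeup in the values of the class was not tested.

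Within progenitor-like cells, which in 3DMono were all of cluster 3, LMO1 was 37.1 and 45.1 CPM in the AcMor tags, 6.43 and 2.45 in the Vehic tags and 29.5 and 16.7 in the AcDop tags. DLX6-AS1 was 104 and 161 CPM in AcMor against 10.4 and 26.9 in Vehic. DLX1 and DLX2 were low in this class, with DLX2 at 17.8 and 8.01 CPM against 2.14 and 3.67, the Vehic values resting on 5 and 3 counts. Over all genes of this class 0.0229% were called. The fitted log2 fold change was 3.04 for LMO1, 3.09 for DLX6-AS1, 2.45 for DLX2 and 1.54 for DLX1.

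Within GABAergic neuron-like cells most DLX levels overlapped between AcMor and Vehic. DLX1 was 95.6 and 75.1 CPM in AcMor against 112 and 72.9 in Vehic, a fitted log2 fold change of -0.08. DLX6-AS1 was 2255 and 2844 CPM against 2907 and 2232, a log2 fold change of 0.03, and DLX5 was at 0.03 too. DLX2 was 89.8 and 60.8 CPM against 49.7 and 37.9 and LMO1 27.7 and 24.5 against 8.87 and 11.7, with log2 fold changes of 0.82 and 1.44. The LMO1 values of the Vehic tags rest on 5 and 4 counts in 67 and 40 cells.

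The AcMor-minus-Vehic difference in mean CPM was divided into a part that follows the mix of clusters and a part that follows levels inside clusters. The mix carried 76.4% of the difference for DLX1, 60.0% for DLX2, 80.0% for DLX6-AS1 and 105% for DLX5. For LMO1 it carried 28.0%, and the remaining 72.0% followed levels inside clusters. Clusters 1 and 12 made the largest contributions for DLX1 (45.7% and 32.3%) and DLX2 (41.1% and 34.9%). For LMO1 the order was cluster 12 (35.3%), progenitor-like cluster 3 (18.9%) and cluster 1 (15.4%). With coarser clusters the mix carried 58.7% for DLX1, 40.5% for DLX2 and 17.6% for LMO1, so the shares depend on how finely cells are divided. DLX6 is too sparse for such a division (164% and 121%).

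**Figure D3:**
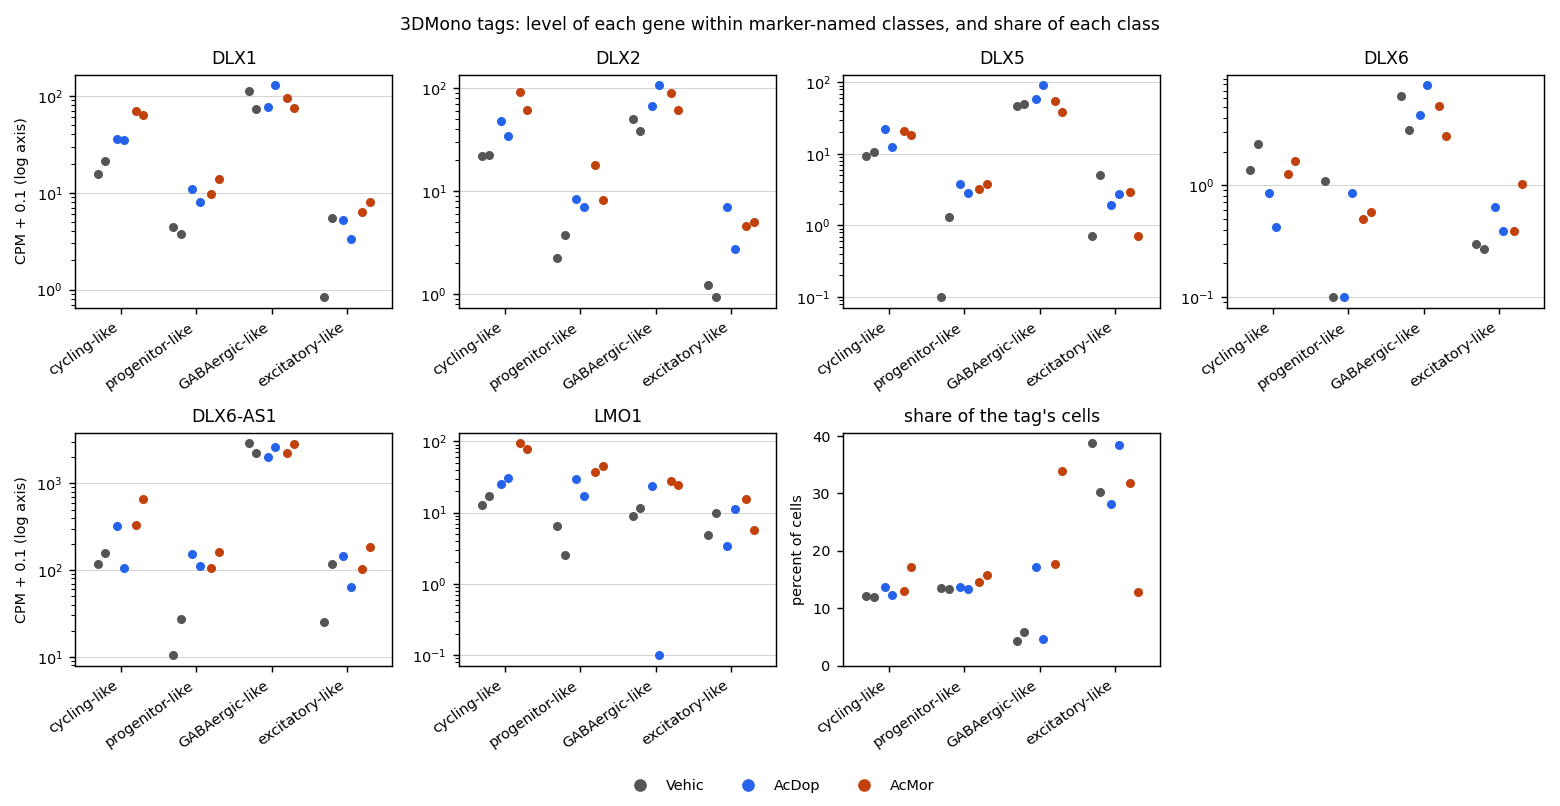
For the 6 tags of 3DMono, 6 panels plot each gene in CPM plus 0.1 on a log axis within 4 marker-named classes, with a point per tag and colours for the treatment, and the last panel plots each class as a percent of the tag's cells. AcMor points sit above Vehic points in cycling-like and progenitor-like cells for DLX1, DLX2, DLX6-AS1 and LMO1, whereas for DLX1 and DLX6-AS1 they overlap in GABAergic neuron-like cells, a class that makes up 17.7% and 33.9% of cells in AcMor and 4.35% and 5.81% in Vehic.

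Other genes of the lineage in this contrast are given with no test as well. Among 14 tested genes of GABA synthesis, transport and interneuron migration the largest log2 fold changes were those of SLC32A1, the vesicular GABA transporter (2.85), GAD1 (2.31), GAD2 (2.23) and CALB1 (-1.68), with a list median of 0.12. Among 11 tested regulators upstream of or beside DLX, VAX1 had 2.43, the Notch effector HES1 -1.17 and NOTCH1 1.11, with a list median of 0.72. Among 20 tested downstream regulators SP9 had 2.44, MAF -1.13, ZFHX3 1.13 and PBX3 1.11 (median 0.26). The 14 tested LMO genes and LIM partners moved little, with LHX1 at -0.57 the largest and a median of -0.02. Of 13 tested partners of DLX5 and DLX6 in craniofacial and skeletal mesenchyme, MSX1 was at -2.40 and PRRX2 at -2.02 (median -1.15). The 15 cortical excitatory genes had a median of -0.36, with EMX2 at -0.71 first. The median over all genes was near 0.

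In 2DMono too, DLX1, DLX2, DLX5 and DLX6-AS1 were higher in both AcMor tags than in both Vehic tags, without passing edgeR's test, and LMO1 differed little. DLX6 overlapped, at 0.788 and 0.343 CPM in AcMor against 0.162 and 0.597 in Vehic. DLX1 was 17.3 and 17.9 CPM in the AcMor tags and 4.54 and 5.57 in the Vehic tags, a log2 fold change of 1.78 ± 0.27 (SE). DLX2 was 15.8 and 7.18 CPM against 2.30 and 2.59 (2.22 ± 0.41, and 1.495 without AcMor tag 1), and DLX5 11.4 and 10.7 against 2.48 and 2.59 (2.06 ± 0.29). DLX6-AS1 was 340 and 254 CPM against 83.9 and 92.5 (1.72 ± 0.24). LMO1 was 4.33 and 4.72 CPM against 4.00 and 3.98 (0.11 ± 0.31).

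By edgeR's quasi-likelihood test with Benjamini-Hochberg adjustment over 19416 genes, none of the 5 members tested in 2DMono AcMor against Vehic passed an adjusted p of 0.05 (0.531 for DLX1, DLX5 and DLX6-AS1, 0.762 for DLX2, 0.959 for LMO1), and 0.0% of all genes did. Unadjusted p-values were 4.45e-05 to 0.000391 for the 4 DLX members, and 1247 genes had an unadjusted p below 0.05. DESeq2 called those 4 members among 0.0927% of genes, and edgeR without the filter on low counts called 4 members among 0.453%. All 5 members were higher in both AcMor tags than in both Vehic tags, as were 24.6% of all genes. DLX6 did not pass the filter in 2DMono. GABAergic neuron-like cells made up 20.6% ± 0.111 of the AcMor tags and 8.15% ± 1.26 of the Vehic tags (SD, n = 2), and GAD1 was 75.5 ± 0.424 against 38.3 ± 2.70 CPM. Their part in the DLX difference was not tested.

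AcDop tags of 2DMono lay between AcMor and Vehic for DLX1 (9.80 and 7.74 CPM), DLX5 (6.39 and 6.59) and DLX6-AS1 (179 and 114), and the AcDop and AcMor contrasts share their Vehic tags. The log2 fold changes were 0.83 ± 0.27 for DLX1, 1.26 ± 0.43 for DLX2, 1.37 ± 0.30 for DLX5, 0.75 ± 0.23 for DLX6-AS1 and -0.25 ± 0.33 for LMO1 (SE). edgeR called 0 of 5 members (adjusted p = 1 for each) and 0.0% of genes. By that test 4 members had an unadjusted p below 0.05, as did 467 of 19416 genes, and DESeq2 called 0 members among 0.067% of genes.

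In 3DMono, the AcDop tags were compared with the same Vehic tags that helped choose the genes, so this contrast is not independent of the choice. Log2 fold changes were 1.05 ± 0.31 for DLX1, 1.46 ± 0.35 for DLX2, 1.01 ± 0.41 for DLX5, 0.41 ± 0.59 for DLX6, 0.70 ± 0.61 for DLX6-AS1 and 1.13 ± 0.28 for LMO1 (SE). Without AcDop tag 1 DLX1 was 0.55, DLX2 0.79, DLX5 0.38 and LMO1 0.76, and without AcDop tag 2 they were 1.42, 1.92, 1.46 and 1.44. DLX6 and DLX6-AS1 did not keep their sign when 1 tag was left out, as given further on. edgeR called 0 of 6 members (adjusted p 1.00 after rounding for each) and 0.0% of genes. By edgeR 4 of 6 members had an unadjusted p below 0.05, as did 740 of 22112 genes. DESeq2 called 0 members among 0.0904% of genes, and edgeR without the filter called 3 members among 0.351% of genes. In progenitor-like cells the Vehic values again come from tags that chose the genes, so p-values there are not independent of that choice. DLX6-AS1 was 152 and 111 CPM in AcDop against 10.4 and 26.9 in Vehic, a log2 fold change of 3.02 that passed edgeR's test (adjusted p = 0.025). It was the only gene called of 13108 (0.00763%), and it was not called without the called doublets or without Vehic tag 1. LMO1 in those cells was 29.5 and 16.7 CPM against 6.43 and 2.45, a log2 fold change of 2.12 with an adjusted p of 0.843. Vehic tag 2 had 2 counts of LMO1 in these cells, and the value ran from 1.72 without AcDop tag 1 to 3.20 without Vehic tag 1. That of DLX6-AS1 ran from 2.31 without Vehic tag 1 to 3.66 without Vehic tag 2.

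In 3DFusi the members varied widely inside each group. DLX1 was 34.6, 58.6, 6.82 and 18.5 CPM in the 4 AcCoc tags, 47.2, 29.3 and 33.4 in the AcMor tags and 19.5, 32.2 and 11.4 in the Vehic tags. LMO1 was 23.7, 49.2, 3.68 and 8.29 CPM in AcCoc, 29.4, 22.7 and 12.9 in AcMor and 11.99, 15.3 and 6.90 in Vehic. The AcCoc values spanned those of Vehic for both genes. AcMor overlapped with Vehic too. The AcMor log2 fold changes were 0.87 for DLX1, 0.52 for DLX2, 0.59 for DLX5, 0.45 for DLX6, 0.81 for DLX6-AS1 and 0.98 for LMO1. GABAergic neuron-like cells made up 21.0% to 23.8% of the AcMor tags, 7.39% to 18.9% of the Vehic tags and 2.55% to 31.7% of the AcCoc tags. Their part in these values was not tested. edgeR called 0 of 6 members and 0.0% of genes in either contrast with Vehic (adjusted p = 1 for each member). By that test 0 members had an unadjusted p below 0.05, beside 393 of 23679 genes in AcCoc and 177 in AcMor. DESeq2 called 0 members. That tag numbers pair the 3DFusi tags was inferred from the data, where same-numbered tags' deviations had a mean correlation of 0.366. The fit above leaves this pairing out. With the number as a replicate block the AcCoc log2 fold changes changed sign, from 0.55 to -0.18 for DLX1 and 0.42 to -0.07 for DLX2. DLX6-AS1 went from 0.60 to -0.50 and LMO1 from 0.93 to -0.08, with DLX5 and DLX6 at -0.0066 and -0.07. AcCoc tag 2, at 58.6 CPM of DLX1 the highest of its group, has no AcMor or Vehic tag of its number. The block therefore leaves that tag out of the AcCoc contrast. The part of this omission in the changed signs was not tested. The AcMor values stayed above 0 with the block, from 0.52 for DLX2 to 0.95 for LMO1, and none was called.

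In 2DCocu, where 6.1% of genes passed edgeR's test in AcCoc against Vehic and 0.975% in AcMor against Vehic, none of the 5 members tested did. DLX2 had the largest values, with a log2 fold change of 1.18 ± 0.49 (SE) in AcCoc (adjusted p = 0.164) and 1.42 ± 0.48 in AcMor (adjusted p = 0.163), on levels of 0.409 to 3.03 CPM in treated and 0.116 to 1.05 CPM in Vehic tags. DLX1 was at 0.43 and 0.50, DLX5 at 0.42 and 0.37 and DLX6-AS1 at 0.61 and 0.47. LMO1 was -0.0020 ± 0.29 and -0.07 ± 0.29. GABAergic neuron-like cells made up 1.06% to 1.63% of AcCoc tags, 0.531% to 1.74% of AcMor tags and 0.129% to 0.431% of Vehic tags, with no overlap with Vehic, and their part in these values was not tested. At an unadjusted p below 0.05 by edgeR there were 2 of 5 members in AcCoc and 1 of 5 in AcMor, beside 4649 and 3023 of 21032 genes. DESeq2 called 0 members in each, among 9.64% and 3.45% of genes. In the same fit 10 of 14 cortical excitatory genes were higher in AcCoc, with NEUROD6 at 1.76, TBR1 at 1.71, NEUROD2 at 1.504 and SLC17A6 at 1.30, and the list median was 1.06, where that of all genes was near 0. Of the GABA list, 3 of 15 were higher and 0 lower: EPHA5, GAD2 and PLXNA4.

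Inside classes few contrasts could be tested, since every tag needed 20 cells of the class. In GABAergic neuron-like cells edgeR called 0 members in 2DMono, 3DFusi and 3DMono AcDop, with 0.0% of genes called in each contrast. For 2DMono AcMor in these cells the log2 fold changes were 0.84 for DLX1, 1.21 for DLX2, 0.90 for DLX5 and 0.37 for DLX6-AS1. The edgeR adjusted p was 1.00 after rounding. An unadjusted p below 0.05 was found for 3 of 4 members and for 388 of 8999 genes, and LMO1 did not pass the filter. Leaving out 1 tag moved the DLX2 value between 0.38 (without AcMor tag 1) and 2.83 (without Vehic tag 1). In 3DFusi AcMor they ran from -0.58 for DLX2 to 0.41 for LMO1. In cycling-like cells of 3DMono AcDop DLX1 was at 1.02, DLX2 at 0.91 and LMO1 at 0.99 (edgeR adjusted p = 1). Of 5 members 3 had an unadjusted p below 0.05 by edgeR, as did 530 of 13959 genes. In each class 3DMono AcDop was compared with the Vehic tags that helped choose the genes, so its values are not independent of the choice. All neuron-like classes together gave 0 members called in every arrangement, with 3.6% of genes called in 2DCocu AcCoc, 1.59% in 2DCocu AcMor and 0.0% elsewhere. In those cells of 2DCocu DLX1 (-0.67 in AcCoc and -1.02 in AcMor) and DLX6-AS1 (-0.65 and -0.89) had the opposite sign to their whole-tag values. LMO1 was at -0.34 and -0.24 there, and its whole-tag values were too near 0 to have a sign. For the share of cells with a count, two-sided exact permutation tests can reach at the least p = 0.0286 with 4 tags against 4 or 3, 0.1 with 3 against 3 and 0.333 with 2 against 2. After adjustment over the 42 tests made none of these designs could pass 0.05, so the tests say nothing for or against a difference.

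Cycling-like cells of the Mono formats differed in LMO1. In 3DMono the 6 tags had 12.8 to 93.7 CPM of LMO1 in these cells, and in the 4 tags of 2DMono with at least 20 such cells it was 0 to 8.30 CPM. DLX1 was 15.6 to 70.1 CPM and 45.7 to 126 CPM. The clusters of the class were mixed differently. Over the treatment means of 2DMono, cluster 12 made up 2.82% to 4.76% of cells and cluster 13 1.07% to 1.37%. In 3DMono they made up 2.02% to 7.39% and 7.73% to 10.4%. The 2 clusters were near each other in 3DMono AcMor (means of 7.39% and 7.73%), and in 1 of its tags cluster 12 was the larger (9.34% against 7.84%). This comparison is a description, since 3DMono holds the tags that chose the genes.

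For the three-dimensional format, the means compared come from tags outside the choosing contrast, while the spread was estimated over all 12 Mono tags, those that chose the genes among them. Between the AcDop tags of 3DMono and 2DMono, LMO1 was 18.8 and 11.6 CPM against 3.62 and 3.09, which edgeR called (log2 fold change 1.95 ± 0.30 SE, adjusted p = 0.00101). It was the only member called, where 13.4% of all genes were called (4.05% higher in 3DMono). The cell makeup differed as well. Progenitor-like cluster 3, with LMO1 at 34.97 CPM over all tags, made up a mean of 13.5% of 3DMono AcDop and 0.108% of 2DMono AcDop. Cycling-like cells made up 13.1% and 4.64%, and cluster 26, where LMO1 was 1.34 CPM, 0.0442% and 12.2%. The part of this makeup in the LMO1 call was not tested. DLX2 had 1.30 ± 0.41 (adjusted p = 0.0582), DLX1 0.65 ± 0.29 (0.173), DLX5 0.31 ± 0.37 (0.637), DLX6 1.21 ± 0.81 (0.372) and DLX6-AS1 0.60 ± 0.48 (0.462). Without 3DMono AcDop tag 1 DLX2 was 0.61, DLX1 0.14 and DLX6 0.30, and without tag 2 of that group they were 1.77, 1.03 and 1.84. DLX5 and DLX6-AS1 did not keep their sign when 1 tag was left out, as given further on. DESeq2 called 2 members, where it called 14.5% of genes, and edgeR without the filter 3, where it called 8.84%. Of the list of LMO genes and LIM partners 4 of 14 were higher and 1 lower, among them LHX1 (3.69), LHX9 (2.42), LDB2 (1.36) and LMO2 (-1.35). Of the downstream DLX regulators 2 of 20 were higher and 3 lower, and the GABA list had 0 higher and 2 lower, ERBB4 (-3.07) and NRP2 (-1.56).

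All 6 members were higher in 3DFusi than in 2DCocu by edgeR's test. The log2 fold changes were 3.93 ± 0.33 for DLX1, 3.73 ± 0.33 for DLX2, 3.49 ± 0.35 for DLX5, 3.31 ± 0.35 for DLX6, 4.31 ± 0.35 for DLX6-AS1 and 1.79 ± 0.33 for LMO1 (SE), with adjusted p-values from 4.26e-09 to 0.000176. Of all genes 48.1% were called and 24.9% were higher in 3DFusi, so a call by itself is common in this comparison. GABAergic neuron-like cells made up 2.55% to 31.7% of the 3DFusi tags and 0.13% to 1.74% of the 2DCocu tags, and their part in the result was not tested. Of 12 tested upstream regulators 7 were higher and 1 lower, led by OLIG1 (4.79), VAX1 (2.93) and SIX3 (2.35). Of 22 downstream regulators 16 were higher and 1 lower, led by ISL1 (5.40), LHX8 (3.53), SP9 (3.31) and LHX6 (2.33).

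**Figure D4:**
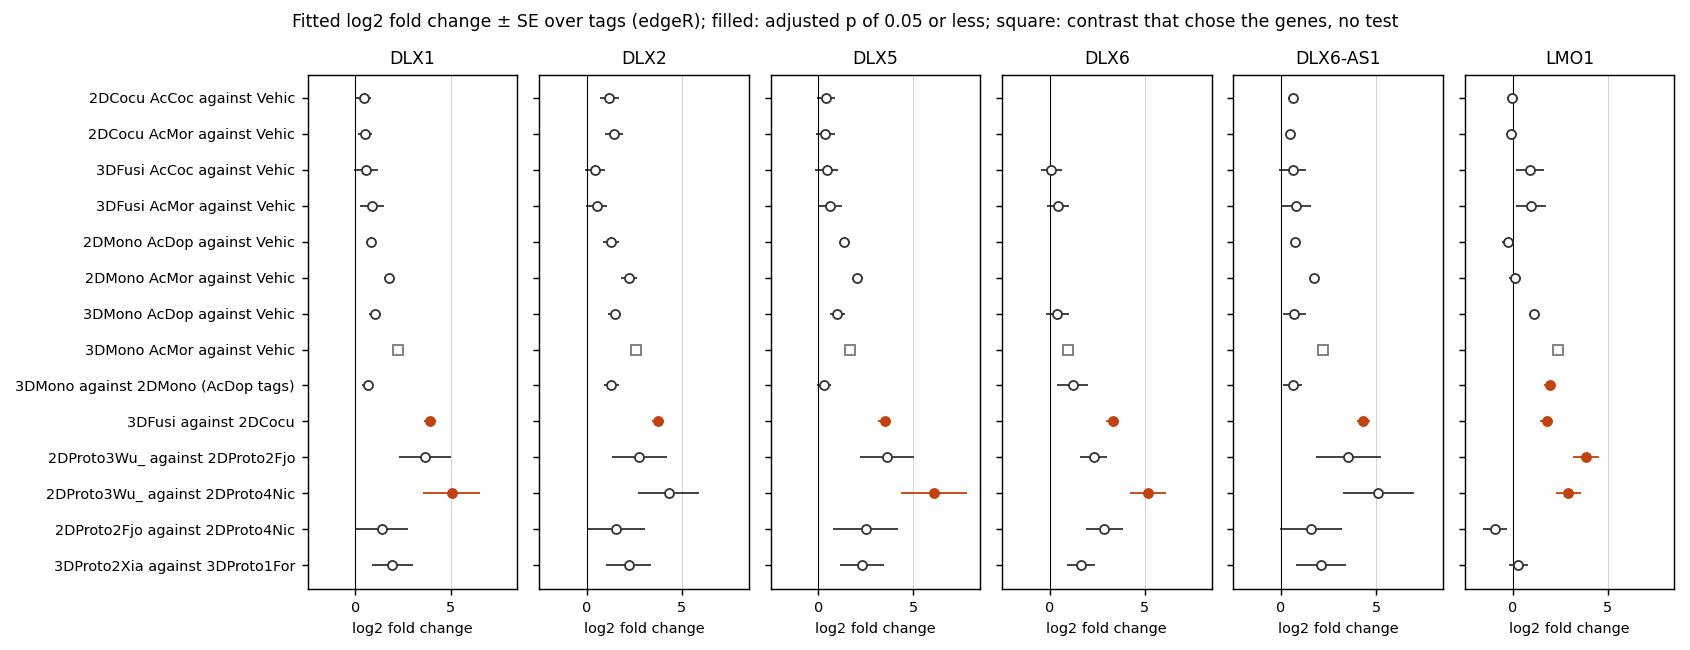
Each panel plots 1 gene, with the log2 fold change on the x axis and the comparisons on the y axis; circles are edgeR values with a bar of 1 SE, filled where the adjusted p is 0.05 or less, and squares are the choosing contrast, which has no test. All 6 genes are filled for 3DFusi against 2DCocu, while for 3DMono against 2DMono LMO1 alone is filled, at 1.95.

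Among the 2-D protocols, 2DProto3Wu_ had the highest levels of all 6 members. DLX1 was 41.7 and 44.9 CPM in its 2 tags, against 3.84 and 2.72 in 2DProto2Fjo and 0.921 and 1.14 in 2DProto4Nic. DLX6-AS1 was 678 and 688 CPM against 69.2 and 45.0 and against 17.0 and 15.4. LMO1 was 53.1 and 45.5 CPM against 4.14 and 2.48 and against 5.09 and 5.48. For these genes the tags of 2DProto3Wu_ did not overlap with those of the other 2-D protocols. How many of all genes separate in this way was not counted. GABAergic neuron-like cells made up 65.9% of 2DProto3Wu_, 3.00% of 2DProto2Fjo and 1.74% of 2DProto4Nic.

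In a fit over all 12 protocol tags edgeR called LMO1 in 2DProto3Wu_ against 2DProto2Fjo (log2 fold change 3.86 ± 0.68 SE, adjusted p = 0.00967) as 1 of 6 members, with 5.56% of genes called (2.67% higher). Against 2DProto4Nic edgeR called 4 of 6, with 17.0% of genes called (8.48% higher): DLX1 (5.06 ± 1.49, adjusted p = 0.0492), DLX5 (6.10 ± 1.74, 0.0436), DLX6 (5.17 ± 0.93, 0.0042) and LMO1 (2.92 ± 0.65, 0.0137). DLX2 had 4.295 ± 1.59 (0.101) and DLX6-AS1 5.10 ± 1.86 (0.0966). Between 2DProto2Fjo and 2DProto4Nic no member passed (9.53% of genes did, 4.85% higher). By edgeR 1 member had an unadjusted p below 0.05, as did 6221 of 25580 genes, and DESeq2 called 1 member among 12.5% of genes.

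The 3-D protocol tags, which differ widely among themselves, enter the spread of that fit. A fit of the 2-D protocol tags alone, chosen after this was seen, called all 6 members in each of the 3 pairs, where 17.0%, 34.2% and 24.6% of genes were called. There the edgeR log2 fold change of DLX6-AS1 against 2DProto4Nic was 5.11 ± 0.19 (adjusted p = 3.7e-07), and LMO1 was lower in 2DProto2Fjo than in 2DProto4Nic (-0.94 ± 0.25, adjusted p = 0.0214) while the 5 DLX members were higher. In the fit over all tags, leaving out 2DProto4Nic tag 2 left 0 members called against 2DProto4Nic, and leaving out any other of the 4 tags left 1. Against 2DProto2Fjo, LMO1 was not called without either 2DProto2Fjo tag or without 2DProto3Wu_ tag 1. Other genes that stood apart in 2DProto3Wu_ against 2DProto4Nic in the fit over all tags were NKX2-1 (8.21), GSX1 (6.53), ISL1 (7.91), LHX8 (7.51) and LHX6 (5.48), factors of ventral forebrain precursors and their neurons. They are named for their large changes among the called genes of the upstream and downstream lists and do not describe those lists as a whole. Of 15 cortical excitatory genes 10 were lower and 0 higher, with NEUROG2 at -7.60 and NEUROD6 at -6.69.

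Between 3DProto2Xia and 3DProto1For no member passed edgeR's test (adjusted p from 0.348 to 0.812, 0.0% of genes called). By that test 1 member had an unadjusted p below 0.05, as did 3512 of 25580 genes, and DESeq2 called 0 members among 0.45% of genes. DLX2 was 25.96, 1.37 and 67.9 CPM in the 3DProto2Xia tags and 3.68, 2.21 and 18.5 in the 3DProto1For tags. LMO1 was 23.9, 9.05 and 34.1 CPM against 15.04, 9.86 and 34.2. Single tags of each protocol lay apart for DLX2, and the groups overlapped.

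Over the 46 tags, 13662 genes with a mean of at least 5 CPM were ranked by the Pearson correlation of log2(CPM + 1) with the mean of the standardised DLX1, DLX2, DLX5 and DLX6 levels. Among the 5 most alike were ENSG00000289413 (0.948), NRXN3 (0.917), VAX1 (0.902) and METAP1D (0.885). NRXN3 encodes a presynaptic adhesion protein, and VAX1 a ventral forebrain homeodomain factor, and METAP1D is a neighbour of DLX1 on chromosome 2. All 5 stayed among the first 5 by Spearman's rho. Without the 3DMono tags, which include those that chose the genes, 4 of the 5 stayed, with GAD1 (0.891) in place of ENSG00000289413. For LMO1 the 5 were ENSG00000227757 (0.883), VAX1 (0.870), PTPRN2 (0.855), SLITRK2 (0.851) and PWRN4 (0.848), of which only SLITRK2 was kept by Spearman's rho and 4 were kept without 3DMono. Tags share arrangement and cell makeup, so these values describe likeness over these tags and carry no p. Inside 3DFusi (10 tags) LMO1 had a correlation of 0.92 with the DLX mean, and inside 2DMono (6 tags) its correlations were 0.50 with DLX1, 0.25 with DLX2, 0.26 with DLX5 and 0.51 with DLX6-AS1. The value inside 3DMono is left out, since most of its tags chose the genes.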

How the data were processed

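The authors deposited 1 matrix of expected counts (estimated counts per gene and cell, not whole numbers) with gene and cell tables. The submitters' processing notes name hg38, Salmon 1.7.0, alevin and Seurat 4.1.1 without saying what each did, and whether counting used strand is not given in the sources used here. The members and the gene lists were chosen with earlier results of these data known. Cells with under 500 genes or over 15% mitochondrial counts would have been left out, which removed 0 of 43693. Cells were clustered without the 6 members and DLX2-DT (2000 variable genes, 30 components, 20 neighbours, Leiden resolution 0.8, scanpy 1.11.5). A class name needed at least 3 markers and 40% of its marker list, each in 10% of cells and 2-fold higher. Doublets were called from simulated ones and kept.

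Counts were summed per tag, and per tag and class with at least 20 cells, rounded to whole numbers and tested with edgeR 4.0.16 (quasi-likelihood, TMM, filterByExpr, Benjamini-Hochberg over all genes tested, threshold 0.05). One fit covered each treated arrangement, each pair of 2-D and 3-D arrangements and the protocol tags. The edgeR script was tested on simulated data. DESeq2 1.42.0, DESeq2 size factors, no filter, removal of called doublets, clustering at 0.4, each tag left out and tag number as a block were the alternatives. A fit of the 2-D protocol tags alone was added after seeing the data. Shares of cells with a count used cells thinned to 5000 counts, which left out 1600 cells (3.66%), and exact permutation tests.

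Tag numbers were taken as pairs only in 3DFusi, where the 9 correlations of same-numbered tags' deviations ran from 0.138 to 0.566. The members are named in each comparison over whole tags where they passed the filter. Of each list, up to 4 genes with the largest absolute fold change among those called are named, and for likeness the 5 closest genes. A few genes that these rules name are not reported here.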

Additional observations from a re-analysis of the deposited data

Results flagged for a closer look

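DLX5 in tag 4 of 2DCocu Vehic was 0.116 CPM, where the other 3 tags of the group had 0.920, 0.963 and 0.863 CPM. It rests on 1 count, and the same tag was also lowest of its group for DLX1 (0.582 CPM), DLX2 (0.116 CPM, 1 count), DLX6 (0) and DLX6-AS1 (8.15 CPM), but highest for LMO1 (6.98 CPM). The gap to the nearest tag was large for the range of the group. It was the 1 such value among 24 examined, which are the 6 genes in each of the 4 groups with 4 tags, and chance gives about 1 in 20. Genes of the same tags are not independent.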

How the results depend on the processing

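Values are log2 fold changes unless named otherwise; for each turn of sign or call below the cause was not tested. LMO1 in 2DCocu was near 0: AcCoc 0.0028 without the filter and 0.16 without called doublets, AcMor 0.085 without called doublets. The replicate block in 3DFusi AcCoc gave -0.18 (DLX1), -0.068 (DLX2), -0.0066 (DLX5), -0.072 (DLX6), -0.50 (DLX6-AS1) and -0.079 (LMO1), and in its GABAergic neuron-like cells 0.065 (DLX5) and -0.23 (LMO1). The block changed no call, and it leaves AcCoc tag 2 out of the AcCoc contrast, as no other 3DFusi tag has that number. Tag numbers of 2DCocu and 2DMono were not taken as pairs, with same-number correlations from -0.297 to 0.112 and from -0.129 to 0.118. Those of 3DMono ran from 0.0620 to 0.237, all above 0 but lower on average than in 3DFusi (mean 0.156 against 0.366). 3DMono was left unpaired as well. With the number as a block, whole-tag values of 3DMono AcDop ran from 0.44 for DLX6 to 1.41 for DLX2, and none was called.

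In all neuron-like cells of 3DFusi AcCoc, DLX6-AS1 was -0.31 with the block and -0.00034 at resolution 0.4, LMO1 -0.22 and -0.051, and without called doublets DLX1 was 0.062 and DLX2 0.12. There LMO1 in AcMor was 0.0054 with the block, 0.00088 without called doublets and 0.076 at resolution 0.4. DLX1 in GABAergic neuron-like cells of 3DMono AcDop was -0.038 at resolution 0.4.

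Members called became 4 in 2DMono AcMor with DESeq2 and 4 without the filter, 3 in 3DMono AcDop without the filter, and 0 in its progenitor-like cells without called doublets. For 3DMono against 2DMono they were 2 with DESeq2, 3 without the filter and 4 as a mean over treatments, which takes in the tags that chose the genes and so is no independent count. For 2DProto3Wu_ against 2DProto4Nic they were 6 with DESeq2 (20.4% of genes), 2 without the filter (9.43%) and 2 without called doublets, and for 2DProto2Fjo against 2DProto4Nic 1 with DESeq2. The 2-D protocol tags alone gave 6 for 2DProto2Fjo against 2DProto4Nic and 6 for 2DProto3Wu_ against 2DProto2Fjo. Shares of all genes called are not given here for the fits without called doublets, over treatments or with 1 tag left out. The counts of members from those fits therefore cannot be set against the change over all genes. The log2 ratio of mean CPM, 3DMono AcMor to Vehic, was 2.64 for DLX2 and 1.52 for DLX6 without called doublets, and 2.58 for DLX2 as fitted with TMM. The DLX6 difference in share of cells was 0.114 points in 2DCocu AcCoc without thinning, 0.0727 with entries of at least 1, and 0.0362 points in 2DMono AcMor with the latter.

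Leaving out 1 tag gave these lowest and highest values. In 3DFusi AcCoc DLX2 ran from -0.022 to 0.96, DLX6-AS1 -0.16 to 0.97 and DLX6 -0.37 to 0.47. In 2DCocu DLX5 in AcMor ran from -0.23 to 0.61, LMO1 in AcMor -0.29 to 0.13 and in AcCoc -0.29 to 0.20. In 3DMono AcDop DLX6-AS1 ran from -0.24 to 1.26 and DLX6 -0.50 to 1.03. For 3DMono against 2DMono DLX5 ran from -0.33 to 0.77 and DLX6-AS1 -0.36 to 1.18, and LMO1 of 3DProto2Xia against 3DProto1For from -0.15 to 0.92. In neuron-like cells of 3DFusi AcCoc DLX1 ran from -0.45 to 0.53, DLX2 -0.41 to 0.74, DLX5 -0.042 to 0.57, DLX6-AS1 -0.35 to 0.63 and LMO1 -0.24 to 0.39; in AcMor DLX2 -0.29 to 0.92 and LMO1 -0.36 to 0.30. In neuron-like cells DLX6-AS1 of 3DMono AcDop ran from -0.13 to 1.12 and LMO1 of 2DCocu AcMor -0.62 to 0.015. In GABAergic neuron-like cells of 3DFusi AcMor DLX1 ran from -0.23 to 0.19, DLX5 -0.55 to 0.28 and DLX6-AS1 -0.26 to 0.042, and in AcCoc DLX5 -0.25 to 0.59 and LMO1 -0.22 to 0.58. In those of 3DMono AcDop DLX1 ran from -0.34 to 0.49, DLX6-AS1 -0.38 to 0.11 and LMO1 -7.30 to 1.21, the lowest resting on a tag with 0 counts, and in those of 2DMono AcDop DLX5 -0.0022 to 0.81 and DLX6-AS1 -0.029 to 0.24. DLX6-AS1 in cycling-like cells of 3DMono AcDop ran from -0.28 to 1.26. The log2 ratio of mean CPM, 3DMono AcMor to Vehic, ran from 1.93 to 2.37 for DLX1, 2.42 to 2.55 for DLX2, 1.25 to 1.98 for DLX5, 1.36 to 2.66 for DLX6-AS1, 0.78 to 1.15 for DLX6 and 2.16 to 2.49 for LMO1.

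Differences in share of cells, in points, ran in 3DFusi AcCoc from -0.425 to 4.69 (DLX1), -0.723 to 3.06 (DLX2), -0.163 to 2.17 (DLX5), -0.0605 to 0.449 (DLX6) and -0.405 to 4.26 (LMO1), and in 3DMono AcDop from -2.77 to 13.7 (DLX6-AS1) and -0.133 to 0.512 (DLX6). In 2DCocu they ran from -0.0226 to 0.0207 (DLX6) and -0.160 to 0.511 (LMO1) in AcCoc, and -0.0226 to 0.0510 (DLX6) and -0.162 to 0.466 (LMO1) in AcMor. In 2DMono they ran from -0.218 to 0.0600 (DLX6, AcDop) and -0.504 to 0.0765 (LMO1, AcMor). Members called ran from 0 to 1 for 2DProto3Wu_ against either other 2-D protocol and for progenitor-like cells of 3DMono AcDop (0 without Vehic tag 1), and from 1 to 2 for 3DMono against 2DMono (2 without 3DMono AcDop tag 2). Leaving out a tag there leaves 1 tag on a side, assumed to vary like the other Mono groups, so LMO1 being called each time is no separate check.

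DLX6, with 769 counts in all, is limited by depth. The exact tests of shares of cells are too small at every group size to pass after adjustment.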
